A study of Mus musculus with 9 samples.

Results

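The report concerns 1808 genomic regions that had no ATAC-Seq peak in fibroblasts (D0) or 3 days after reprogramming factors were added (D3), and that had one in Thy-1- cells at day 6, in SSEA-1+ cells at days 12 and 16, and in iPSCs. Regions were formed by merging overlapping peaks of the 7 time-course libraries on chromosomes 1 to 19, which gave 204843 regions. Members were selected on peak calls alone: absent from D0 and D3, and present, by at least 1 bp of overlap, in D6T-, D12S+, D16S+ and iPSCs, with D9T- left free. They made up 0.883% of all regions. Peaks in those 6 libraries therefore chose the members, and their levels in them are given as a description.

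In ATAC-Seq the Tn5 transposase inserts adapters into DNA that is not packed tightly on nucleosomes, so a pile of tags marks an accessible promoter, enhancer or insulator. During reprogramming of fibroblasts to iPSCs, enhancers of the somatic programme lose accessibility and those of the pluripotency network gain it. Oct4 and Sox2 can bind side by side on a joint DNA site found at many pluripotency enhancers. AP-1, the Fos and Jun family, occupies many fibroblast enhancers, and CTCF binds insulators and loop anchors.

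Mouse embryonic fibroblasts carrying an IRES-EGFP cassette at the Oct4 (Pou5f1) gene were infected with retroviruses for Oct4, Sox2, Klf4 and c-Myc. D0 was the fibroblasts before induction and D3 the unsorted culture at day 3. D6T- and D9T- were Thy-1- cells, which had lost a fibroblast surface antigen, at days 6 and 9. D12S+ and D16S+ were SSEA-1+ cells, which carry a surface mark of intermediates on the way to pluripotency, at days 12 and 16, and the iPSCs were fully reprogrammed cells that were not sorted. A pair of further day 6 libraries came from cells transfected before induction with non-targeting siRNA (D6 siNT) or with siRNA against the replication-independent histone variant H3.3 (D6 siH3.3). The labels give these as Thy-1- cells, while the study's own sample listing names no sort for them. The step from D3 to D6T- joined 3 more days of factor expression with the Thy-1 sort, and the effects of these cannot be told apart. Each condition was 1 library, so no test between conditions was possible, and the intervals below are 95% Wilson intervals that cover the counting of regions only, not the variation between cultures.

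Library size ran from 13213117 tags (D9T-) to 31714845 (D0), and peaks on chromosomes 1 to 19 from 35811 (D9T-) to 129532 (D6T-). Both libraries in which a peak had to be absent were the deepest, and their lowest called values, 0.347 CPM at D0 and 0.331 CPM at D3, lay below the 0.374 CPM of D6T-. Summit CPM is the number of extended tags over the top of a peak, per 1000000 tags of the library. Tag enrichment differed between libraries: over 12060 regions with a peak in all 9 libraries the median was 3.41 CPM in D6T- but 1.24 in D6 siNT, 1.29 in D6 siH3.3, 1.36 in D9T-, 1.09 in iPSCs and 0.883 in D0. Promoter peaks at the marker genes followed the labels in part. Of 8 pluripotent markers, 2 had one at D0, 5 at D3 and at D6T-, 2 at D9T-, 7 at D12S+ and all 8 in D16S+ and iPSCs. Of 8 fibroblast markers, 6 had one at D0 and 7 at D6T-, where Thy1 itself had none, and 5 still had one in iPSCs. Of the 4 epithelial markers none had a promoter peak at D0. They numbered 3 in the D3 library, 2 in D6T-, 1 in D9T- and 3 in D12S+, and all 4 had a peak in D16S+ and iPSCs.

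Sequences of members are shown to make visible the motifs whose shares are compared below. Each is the 120 bases around the D6T- summit, on the plus strand of mm9. Only the match to the motif it is shown for is in capitals. Other searched motifs stay in lower case, such as an AP-1 match in the chr9 window and a CTCF match in the chr17 window. The Etv5 intron window also holds a Sox motif. The first 5 are, of the rest, those with the highest signal that hold the core of the joint Sox2 and Oct4 site, TTGTNATGC, on either strand of these bases. Signal was taken as the lowest CPM of the 4 required libraries.
promoter of a Y_RNA gene, chr17:76511234-76511353: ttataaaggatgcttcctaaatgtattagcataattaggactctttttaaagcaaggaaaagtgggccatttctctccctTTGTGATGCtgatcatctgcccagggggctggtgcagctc
intergenic, nearest TSS AC141438.1, chr9:25662284-25662403: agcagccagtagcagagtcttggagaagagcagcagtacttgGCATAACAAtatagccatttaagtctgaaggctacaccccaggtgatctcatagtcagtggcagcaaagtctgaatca
Rims2 intron, chr15:39079828-39079947: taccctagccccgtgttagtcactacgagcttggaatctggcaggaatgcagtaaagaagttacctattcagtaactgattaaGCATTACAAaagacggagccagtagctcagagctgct
intergenic, nearest TSS G630016G05Rik, chr2:116069068-116069187: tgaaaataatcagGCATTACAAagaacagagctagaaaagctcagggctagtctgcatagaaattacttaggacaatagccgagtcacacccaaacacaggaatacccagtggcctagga
intergenic, nearest TSS Gm11997, chr11:10237867-10237986: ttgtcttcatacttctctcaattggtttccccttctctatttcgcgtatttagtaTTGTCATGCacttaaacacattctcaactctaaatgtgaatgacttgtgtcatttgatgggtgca
The match lay on the plus strand in the first and the last of these and on the minus strand in the others. The next 4 belong to or lie near genes named below and hold the octamer of Oct4, ATTTGCAT, or the Klf motif, GGGNGTGG.
Dppa3 promoter, chr6:122574643-122574762: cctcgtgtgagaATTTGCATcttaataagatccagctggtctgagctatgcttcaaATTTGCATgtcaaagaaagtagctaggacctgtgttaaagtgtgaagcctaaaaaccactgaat
Etv5 intron, chr16:22412010-22412129: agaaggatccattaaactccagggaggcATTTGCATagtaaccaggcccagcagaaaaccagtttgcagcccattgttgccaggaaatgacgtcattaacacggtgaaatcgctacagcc
intergenic, nearest TSS a U6 gene, chr3:137443186-137443305: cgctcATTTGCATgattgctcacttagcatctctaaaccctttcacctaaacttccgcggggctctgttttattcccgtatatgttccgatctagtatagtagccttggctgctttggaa
Tcfcp2l1 intron, chr1:120544694-120544813: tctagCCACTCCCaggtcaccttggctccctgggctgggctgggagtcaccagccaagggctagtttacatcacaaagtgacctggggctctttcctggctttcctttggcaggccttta
The Dppa3 promoter held 2 octamers within the 120 bases. The last 4 show the strongest members, of those left for printing, with the CTCF core, CNAGGNGGC, and with the AP-1 motif, TGANTCA, in that order.
Dcbld1 intron, chr10:51993836-51993955: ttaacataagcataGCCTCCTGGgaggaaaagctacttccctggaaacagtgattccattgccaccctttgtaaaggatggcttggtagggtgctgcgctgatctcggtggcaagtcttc
3110004A20Rik promoter, chr11:40291802-40291921: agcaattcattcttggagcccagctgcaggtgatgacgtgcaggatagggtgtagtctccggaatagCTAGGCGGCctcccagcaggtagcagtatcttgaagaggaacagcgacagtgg
intergenic, nearest TSS 1700094C10Rik, chr5:74337443-74337562: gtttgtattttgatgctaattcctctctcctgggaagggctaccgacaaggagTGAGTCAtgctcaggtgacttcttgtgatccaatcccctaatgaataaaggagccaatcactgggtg
intergenic, nearest TSS Atp6v1h, chr1:5223091-5223210: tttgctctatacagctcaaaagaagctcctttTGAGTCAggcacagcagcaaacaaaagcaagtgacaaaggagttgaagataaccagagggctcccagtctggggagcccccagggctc

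Most regions with a first peak in D6T- had no peak called in the SSEA-1+ and iPSC libraries. D6T- had 129532 peaks and D12S+, D16S+ and iPSCs 55759, 48834 and 60527, so a missing call there is not a measured loss of accessibility. Of 48488 regions new at D6T-, that is absent from D0 and D3, 84.3% (84.0 to 84.6) had no peak in D12S+, D16S+ or iPSCs, and these 40870 are called transient D6T- regions here. A peak in 1 of those 3 later libraries was found at 8.10% and in 2 of them at 3.88%, and the members were the remaining 3.73% (3.56 to 3.90). Set against all 10469 regions that were absent from D0 and present in D12S+, D16S+ and iPSCs, the members were 17.3% (16.6 to 18.0). Of these, 44.7% had opened at D3 and were present in D6T- too (early-staying regions, 4676), and 32.9% had no peak at D0, D3 or D6T- (late-staying regions, 3442, of which 115 had a D9T- peak).

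Members were of modest signal in D6T-. Their median width was 513 bp, from 252 to 2343 bp, which was above the 365 bp of all regions. A member joins peaks of at least the 4 required libraries, so its greater width is in part built in. Median summit CPM was 0.701 in D6T-, 0.852 in D12S+, 0.850 in D16S+ and 0.677 in iPSCs, and the highest values were 2.38, 4.77, 6.66 and 4.44 CPM. In tags, the D6T- median was 15.0 and the lowest was 8, the fewest the caller accepted there. The median member stood at or above 38.4% of all D6T- regions, 52.4% of those of D12S+, 52.8% of D16S+ and 61.1% of iPSCs. Its rank within a library was therefore lowest in D6T-, the library with the most peaks. All 1808 members exceeded the lowest value called at D0 and at D3, which was fixed in advance because D6T- peaks started at 0.374 CPM. By library tags, the higher of these values was exceeded at least 2-fold by 1002 members (55.4%) and at least 3-fold by 280 (15.5%). The libraries differed in enrichment, however: over regions with a peak in all 9 the median was 3.41 CPM in D6T-, 1.98 in D3 and 0.883 in D0. These folds therefore do not show that a member of equal accessibility would have been called at D0 or D3. The absence of a peak at D0 and D3 is thus the absence of a call, and weaker accessibility below that level was not measured.

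**Figure D1:**
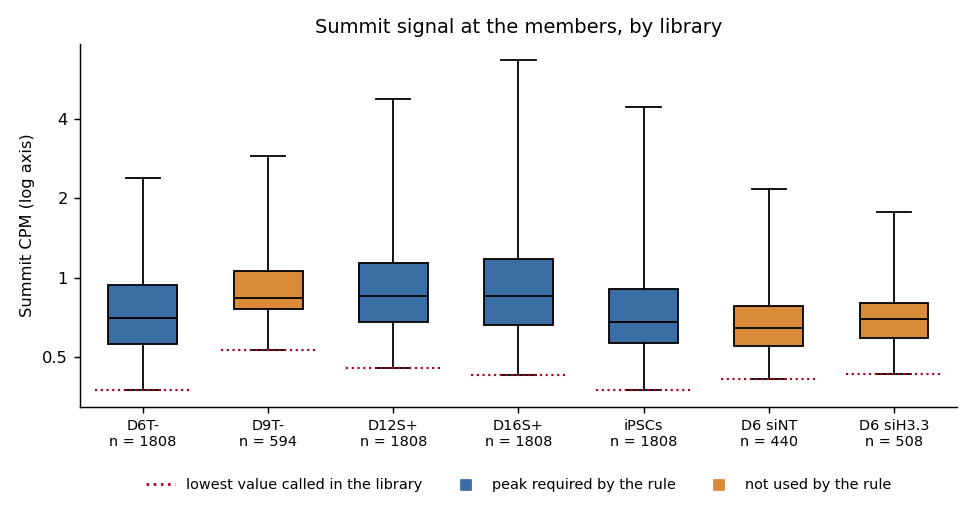
Summit CPM (log axis) of the members in each library with a peak. Boxes give the quartiles with the median, whiskers the lowest and highest member, and dotted lines the lowest value called in that library. The boxes of the 4 required libraries overlap, with medians between 0.677 and 0.852 CPM, and the lowest members sit on the lowest value called.

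The required peaks mostly overlapped. Overlap and close summits are in large part built into the rule, which merges overlapping peaks, and are given as a description. In 1726 members (95.5%) the strongest D6T-, D12S+, D16S+ and iPSC peaks shared at least 1 base. The median distance between the D6T- summit and the later one was 50.0 bp for D12S+, 54.0 bp for D16S+ and 60.0 bp for iPSCs, and 70.6% of members had D6T- and iPSC summits within 100 bp of each other. Few stood at the edge of older accessible sites: 15.7% had a D0 or D3 peak within 1 kb, and the median gap to the nearest such peak was 5179 bp, against 18.5% and 5650 bp for transient D6T- regions.

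The 10 members with the highest signal in all 4 required libraries were mostly distal. The first was in an intron of Tox, which encodes an HMG-box factor (chr4:6895841-6896393). It had 2.34 CPM in D6T-, 2.12 in D9T-, 2.73 in D12S+, 4.01 in D16S+ and 2.26 in iPSCs, with 1.15 in D6 siNT and 0.857 in D6 siH3.3. The second was in an intron of Fggy, a carbohydrate kinase gene (chr4:95351297-95351994), with 1.92 CPM in D6T-, 1.14 in D9T-, 2.55 in D12S+, 2.60 in D16S+ and 3.05 in iPSCs. Among the required libraries iPSCs was highest at Fggy under both scalings, and at Tox D16S+ was highest by tags but iPSCs when scaled to common regions. A member in an intron of Cnot2, a subunit of the CCR4-NOT deadenylase complex (chr10:115999203-115999720), had 1.40, 2.19, 2.27, 2.64 and 1.50 CPM over the same 5 libraries. A member in an intron of Rbpms, an RNA-binding protein gene (chr8:35024436-35025191), had 1.40, 1.06, 2.78, 2.79 and 1.32 CPM and no peak with either siRNA. The others lay in the annotated UTR of Dennd5b, at the promoter of the predicted gene Gm6792, and between genes nearest to Zc3h11a, a U6 gene, Hs2st1 and Dnahc7a. In these 10 the D6T- values ran from 1.26 to 2.34 CPM. All 10 had a D9T- peak, 8 had one in D6 siNT and 9 in D6 siH3.3, libraries that played no part in choosing them.

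**Figure D2:**
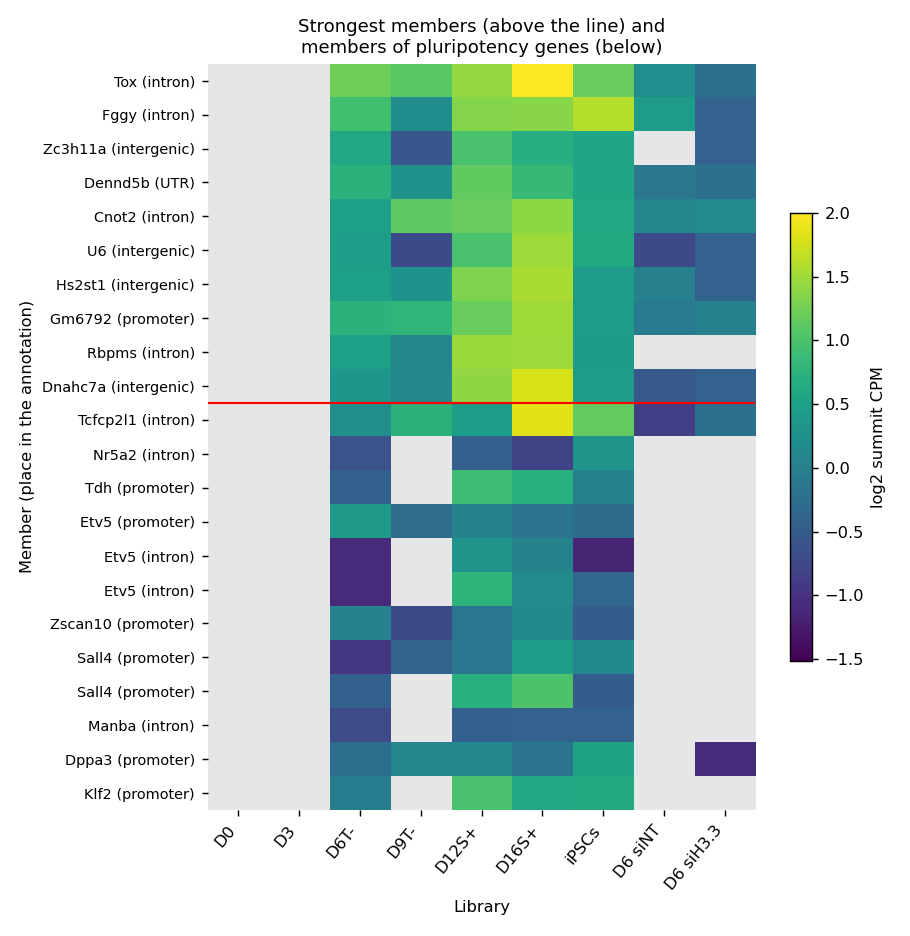
Log2 summit CPM (colour) in each library (columns) for the 10 strongest members (above the red line) and for the 12 members in the promoter or body of a listed pluripotency gene (below). Grey marks a library with no called peak. D0 and D3 are grey throughout by the rule, all 10 strongest members have a D9T- value, and most pluripotency members are grey in both siRNA libraries.

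The libraries that the rule did not use saw only part of the members. A D9T- peak was present at 594 members (32.9%, 30.7 to 35.1), against 16.1% of all regions. D6 siNT had a peak at 442 (24.4%, 22.5 to 26.5) against 20.1% of all regions, and D6 siH3.3 at 513 (28.4%, 26.3 to 30.5) against 20.4%. The share for D9T- was thus higher than over all regions, and those for the siRNA libraries only somewhat so. A peak in all 3 libraries was found at 232 members (12.8%), and 942 (52.1%) had none in any of them. At 1151 members (63.7%) neither siRNA library had a peak, so that the day 6 peak rested on D6T- alone. Values of D9T-, where called, had a median of 0.833 CPM. That library was the shallowest, and its lowest called value of 0.530 CPM was above the D6T- value of many members.

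Signal strength separated the members more than their genomic place did. The members were divided into terciles of D6T- CPM, up to 0.608, from 0.654 to 0.841, and from 0.888 CPM. The D9T- share was 18.2% (15.4 to 21.3), 29.6% (26.1 to 33.3) and 54.3% (50.1 to 58.5) in turn. For D6 siNT it was 9.31%, 21.1% and 46.6%, and for D6 siH3.3 14.4%, 22.9% and 51.6%. Transient D6T- regions of the same CPM ranges had a D9T- peak at 1.69%, 4.75% and 18.2%, a D6 siNT peak at 3.50%, 9.23% and 30.9%, and a D6 siH3.3 peak at 3.53%, 9.58% and 33.5%. At equal D6T- signal a peak was thus called more often at members in each of the 3 libraries, and the intervals of members and transient regions did not overlap in any tercile. By definition, though, members had a peak in D12S+, D16S+ and iPSCs, and transient regions in none of them. A higher share of calls in a further library is therefore in part built into these classes. Among the 691 regions that passed when each library was limited to its 36708 strongest peaks, 77.9% had a D9T- peak, against 46.2% of the transient regions of that setting. For D6 siNT it was 67.6% against 54.1%, and for D6 siH3.3 63.1% against 55.4%. These are mostly other regions: 61 of the 691 overlapped a member, and 91.2% overlapped a deposited D0 or D3 peak. By place, a D9T- peak was found at 25.1% (20.2 to 30.7) of the members in promoters, 30.6% (27.4 to 34.0) of those in gene bodies and 37.3% (34.1 to 40.7) of those between genes.

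**Figure D3:**
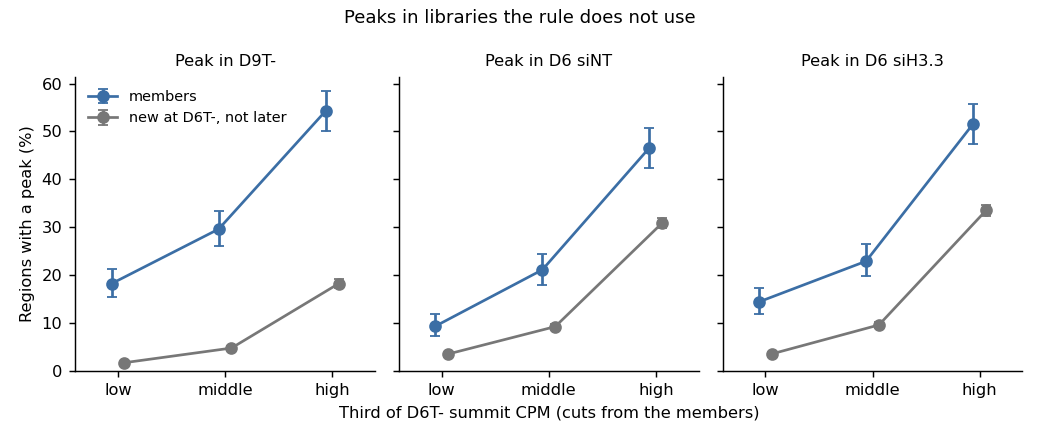
Share of regions (percent, with 95% Wilson intervals) that have a peak in D9T-, D6 siNT or D6 siH3.3, by tercile of D6T- summit CPM, for the members (blue) and for transient D6T- regions (grey). In each panel both lines climb with D6T- signal and the members lie above, with 54.3% against 18.2% for D9T- in the highest tercile. Members had peaks in D12S+, D16S+ and iPSCs by definition and transient regions had none there, which in part builds in this difference.

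The siRNA libraries had members at close levels, and differed somewhat in how many they held. Both siRNA libraries had a peak at 298 members (16.5%), only D6 siNT at 144 (7.96%) and only D6 siH3.3 at 215 (11.9%). Over all regions these shares were 15.8%, 4.30% and 4.66%. Each library of the pair thus lacked a larger share of members that the other held than over all regions. This was not particular to the members, as early-staying regions had 38.7%, 12.7% and 11.3% in the same order. Transient D6T- regions had 5.54%, 4.38% and 4.94%. Among 296 members with a summit in both, the median log2 ratio of D6 siH3.3 over D6 siNT was 0.10, and it was 0.08 over 32194 regions of all kinds. At least 2-fold higher with H3.3 siRNA was 1 member (0.338%), against 1.16% of all such regions, and at least 2-fold lower were 3 (1.01%), against 0.441%. The lowest ratio was at chr12:66694450-66695342, between genes, with 1.42 CPM in D6 siNT and 0.589 in D6 siH3.3 (log2 ratio -1.27). The highest was 127247 bp from the start of Sema6a, a semaphorin gene, with 0.413 and 0.964 CPM (log2 ratio 1.22), which is 9 tags against 18. An intron of Pias2, a SUMO ligase gene, had 1.19 and 0.589 CPM (-1.02), and an intron of Nedd4l, a ubiquitin ligase gene, had 0.551 and 1.07 CPM (0.96). Counts of this size carry wide counting error, and with 1 library each no ratio could be tested.

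Within the members the balance between iPSCs and D6T- varied widely. The rule required both peaks, so this contrast is given only as a description. The median log2 ratio of iPSC over D6T- CPM was -0.01, with quartiles of -0.49 and 0.45, but it was 1.63 when libraries were scaled to the regions with a peak in all 9, and 0.06 on the fold enrichment of the peak caller, so its direction was not settled. On the scale of library tags, at least 2-fold higher in iPSCs were 145 members (8.02%), against 1.09% of all 31164 regions with both peaks, and at least 2-fold lower were 147 (8.13%), against 52.7%. Scaled to the common regions, 1471 members (81.4%) and 33.7% of all such regions were at least 2-fold higher, and 0 members and 2.75% were at least 2-fold lower. The largest ratio was in an intron of Muc19, a mucin gene (chr15:91694443-91695021), with 0.374 CPM in D6T-, 2.61 in D12S+, 3.87 in D16S+ and 2.45 in iPSCs (log2 ratio 2.71). Its D6T- value was 8 tags, the fewest called there, and the other day 6 libraries had 1.06 CPM (D6 siNT) and 1.55 CPM (D6 siH3.3). A member between genes, 64145 bp from Gpr125, had 0.421, 1.59, 1.79 and 2.14 CPM (2.35), and one in the span of the vomeronasal receptor gene Vmn2r85 had 0.935, 4.77, 6.66 and 4.44 CPM (2.25). In these 3 the higher level was already present at D12S+. The smallest ratio was in an intron of the zinc-finger gene Zfp407, with 2.38 CPM in D6T-, 0.852 in D12S+, 0.897 in D16S+ and 0.451 in iPSCs (-2.40). An intron of Ano4, of the anoctamin family, had 1.82, 0.681, 0.567 and 0.376 CPM (-2.28), and the promoter of Gm14400 had 1.73, 0.852, 0.520 and 0.376 CPM (-2.20). The last 2 stood at the lowest value called in iPSCs.

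Members and transient D6T- regions differed in motif content. Of 16 short motifs searched on both strands in the 200 bp around the D6T- summit, the joint Sox2 and Oct4 core (TTGTNATGC) was present in 67 members (3.71%, 2.93 to 4.68). It was present in 1.25% (1.15 to 1.37) of transient D6T- regions, 1.09% of early-staying regions, 4.07% (3.46 to 4.78) of late-staying regions and 0.927% of all regions. The Oct4 octamer (ATTTGCAT) was present in 84 members (4.65%, 3.77 to 5.72), against 2.31%, 1.95%, 4.45% and 1.66% in the same order. For these motifs the members were close to the late-staying regions, and their intervals overlapped. The share with the Sox2 motif CCATTGT was 6.75% in members and 6.22% in transient regions, with overlapping intervals, and 9.65% in late-staying regions. The motif of Klf4 and its relatives (GGGNGTGG) was in 12.7% (11.2 to 14.3) of members and 7.91% of transient regions. It was in 16.6% of early-staying, 15.4% (14.3 to 16.7) of late-staying and 10.0% of all regions.

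AP-1 ran the other way. TGANTCA was present in 202 members (11.2%, 9.80 to 12.7) and in 38.4% (37.9 to 38.9) of transient D6T- regions, with 24.3% over all regions. Early-staying and late-staying regions held it still less often, at 7.98% (7.23 to 8.79) and 5.81% (5.08 to 6.64). The motif of Runx factors (TGTGGTT) was in 4.31% of members, 7.18% of transient and 5.89% of all regions. Early-staying and late-staying regions held it at 3.23% and 2.47%. The CTCF core (CNAGGNGGC) was in 134 members (7.41%, 6.29 to 8.71), against 2.64% of transient, 4.59% (3.94 to 5.34) of late-staying, 10.9% (10.0 to 11.8) of early-staying and 4.97% of all regions. The GC-rich motifs of Tfap2 (GCCNNNGGC) and Zic (CNGCNGGGG) were in 8.57% and 5.03% of members, and in 15.4% and 11.3% of early-staying regions. Over all regions they were in 8.01% and 4.89%, within the members' intervals. The Tead motif (GGAATG) was in 15.0% (13.4 to 16.7) of members, 14.6% of transient and 15.2% of all regions, which overlapped. The Esrrb motif (TCAAGGTCA) was in 5 members (0.277%) and the Grainyhead-like motif (AACCGGTT) in 1. The 5810 regions new at D6T- with a peak in 1 or 2 of D12S+, D16S+ and iPSCs were near the members in part. They held Klf at 11.4% (10.6 to 12.3), CTCF at 9.23% and AP-1 at 14.2% (13.3 to 15.1), but the Sox-Oct core at 1.51% (1.23 to 1.86) and the octamer at 2.60% (2.22 to 3.04), both below the members' intervals.

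**Figure D4:**
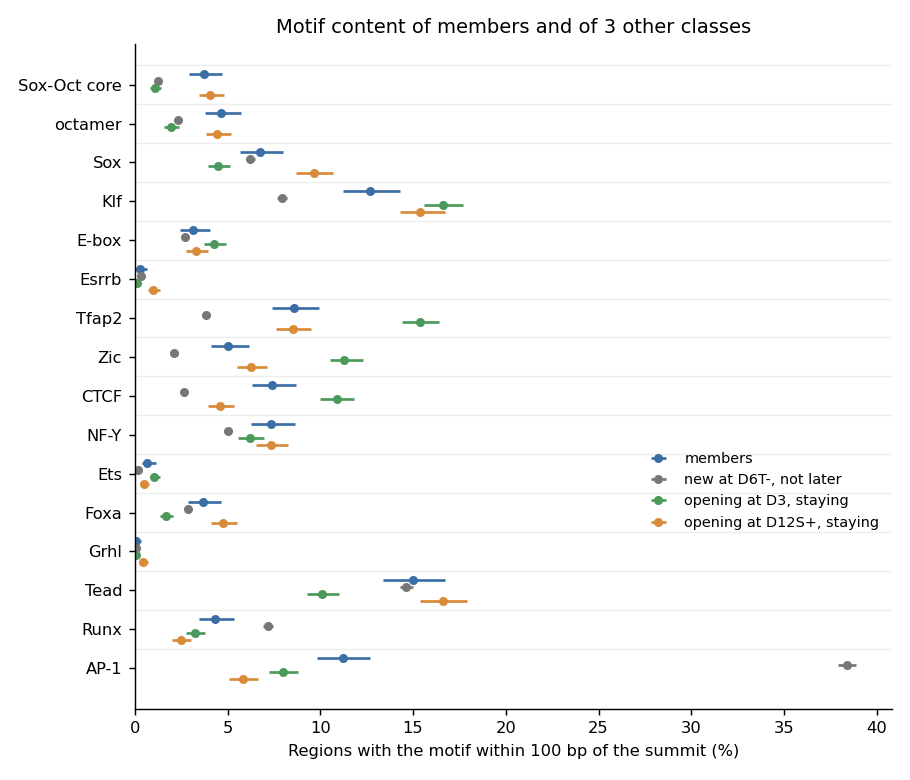
Share of regions (percent, 95% Wilson intervals) with each of 16 motifs within 100 bp of the summit, for the members and the 3 other classes. Members and late-staying regions hold the Sox-Oct core and the octamer at like shares (3.71% and 4.07% for the core), and AP-1 is at 11.2% in members against 38.4% in transient D6T- regions.

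The contrast held at each level of signal and outside promoters. In terciles of D6T- CPM, the Sox-Oct core was in 3.05%, 3.76% and 4.44% of members and in 1.14%, 1.30% and 1.51% of transient D6T- regions. AP-1 was in 10.5%, 10.3% and 12.9% of members and in 32.9%, 40.9% and 51.1% of transient regions. Outside promoters the Sox-Oct core was in 3.94% (3.08 to 5.03) of members against 1.27%, and AP-1 in 11.2% against 39.3%. Base composition also differed between the classes: median GC content of the window was 50.0% in members, 44.5% in transient, 57.5% in early-staying and 51.5% in late-staying regions. Its part in the motif shares was not tested. When each library was limited to its 36708 strongest peaks, 691 regions passed the rule, of which 61 overlapped a member. The Sox-Oct core was then in 2.60% (1.65 to 4.08) of them against 1.89% (1.53 to 2.33) of transient regions, which overlapped, while AP-1 was in 15.5% against 56.3%.

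Members with different motifs differed in the libraries the rule had not used. Of the 67 with the Sox-Oct core, 42 had a D9T- peak (62.7%, 50.7 to 73.3), against 32.9% of all members. Of the 84 with an octamer it was 36 (42.9%, 32.8 to 53.5), and of the 202 with AP-1 73 (36.1%, 29.8 to 43.0). Of the 134 with the CTCF core only 23 had one (17.2%, 11.7 to 24.4). The order was the same for D6 siNT between the Sox-Oct core (37.3%, 26.7 to 49.3) and CTCF (14.2%, 9.27 to 21.1), whose intervals did not overlap. In D6 siH3.3 it was 35.8% (25.4 to 47.8) and 18.7% (13.0 to 26.1), which overlapped, and the octamer (44.0%) and AP-1 (37.6%) were above the Sox-Oct core there. Median D6T- CPM was close, 0.748 with the Sox-Oct core and 0.701 with CTCF, but at D12S+ it was 1.14 and 0.766 and in iPSCs 0.865 and 0.640. The median log2 ratio of iPSCs over D6T- was 0.36 with the Sox-Oct core and -0.09 with CTCF, both scaled by library tags. AP-1 together with a Sox-Oct core or octamer was in 17 of the 142 members with either of these, where AP-1 was in 11.2% of all members, and 662 (36.6%) held none of the 16 motifs.

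By location, 259 members (14.3%, 12.8 to 16.0) had their midpoint within 3 kb upstream of the TSS of any annotated transcript, 729 (40.3%) in a gene body outside promoters and 820 (45.4%) between genes. In gene bodies, 635 were intronic and 39 in coding exons. The promoter share was 7.99% (7.73 to 8.26) in transient D6T- regions, 27.0% (25.8 to 28.3) in early-staying and 11.4% (10.3 to 12.5) in late-staying regions. Over all regions it was 13.5%, within the members' interval, so the members were near the background in this. Median distance to the nearest TSS was 14128 bp for members, 21906 bp for transient, 3276 bp for early-staying and 15711 bp for late-staying regions, and 12887 bp over all regions. Windows with 10 or more CpG, as in CpG islands, were 6.47% (5.43 to 7.70) of members, 0.785% of transient, 37.2% of early-staying and 9.46% of all regions, and among members in promoters they were 18.9% (14.6 to 24.1). The members thus lay between the transient and the early-staying regions in promoter share and CpG content, near the late-staying ones. Per 1000 regions, members numbered from 5.61 on chromosome 15 to 11.5 on chromosome 10.

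A higher share of pluripotency genes than of all genes held members. Of 21418 protein-coding genes 861 (4.02%) had a member in the gene or within 3 kb upstream, and of 40 listed pluripotency genes 9 had (22.5%): Dppa3, Etv5, Klf2, Manba, Nr5a2, Sall4, Tcfcp2l1, Tdh and Zscan10. Early-staying regions lay at 25.0% of the same list against 13.5% of all genes, late-staying regions at 40.0% against 6.18%, and transient D6T- regions at 30.0% against 37.3%. Of 40 epithelial genes only Esrp1 had a member (2.50%), whereas early-staying regions lay at 45.0% and late-staying regions at 32.5% of them. None of 30 mesenchymal and fibroblast genes had a member. With a member at only 4.02% of all protein-coding genes, this count and the epithelial one were near the background. Transient D6T- regions lay at 70.0% of the mesenchymal and fibroblast genes and at 37.3% of all protein-coding genes. Of 40 genes of LIF, BMP, Wnt, FGF and Nodal signalling 3 had a member (Etv5, Fgfr2 and Smad7). Chromatin genes gave 3 of 39 (Cbx7, Chd1 and Kdm4c), germline genes 1 of 40 (Dnd1) and extraembryonic, endoderm and mesoderm genes 1 of 39 (Fgfr2). The annotation draws Fgfr2 over 3009069 bp, and the members inside that span lay nearest to other genes (Chst15, Ctbp2 and Hmx2). The members at Dppa3, Tcfcp2l1 and Manba also had the TSS of another gene nearest (a Y_RNA gene, a 5S_rRNA gene and Gm16100).

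**Figure D5:**
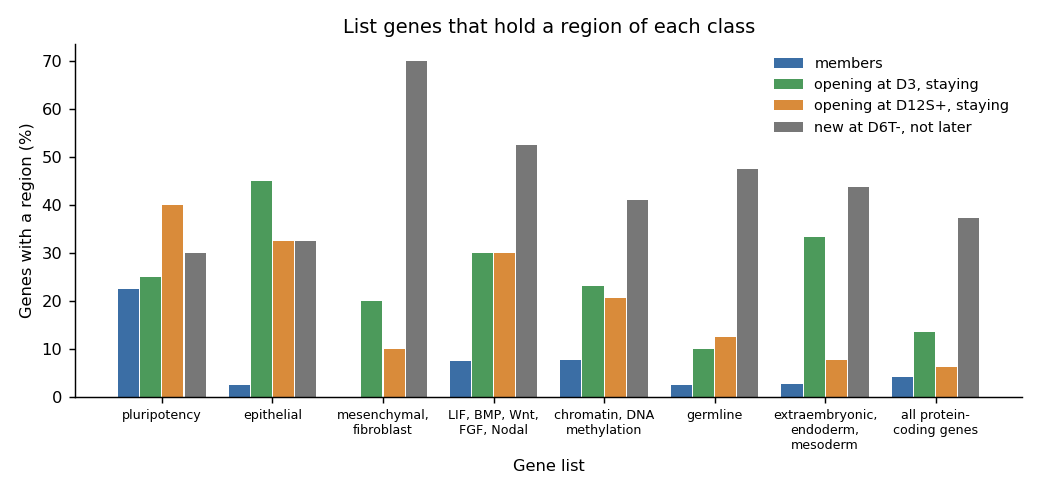
Percent of the genes of each list, and of all protein-coding genes, that hold a region of each class in the gene or within 3 kb upstream. Members (blue) stand at 22.5% of pluripotency genes against 4.02% of all genes. They stand at 2.50% of epithelial genes and at 0 of 30 mesenchymal genes, near that 4.02%. Transient regions (grey) stand at 70.0% of the mesenchymal genes and at 37.3% of all genes.

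By library tags, the order of libraries differed between the pluripotency genes. Scaled to common regions, D6T- was the lowest required library at all 12 of their members. Under that scaling 81.4% of all members were at least 2-fold higher in iPSCs than in D6T-, so this was not particular to these genes. Tcfcp2l1, a transcription factor of the naive state, had an intronic member (chr1:120544098-120545157) with 1.17 CPM in D6T-, 1.67 in D9T-, 1.36 in D12S+, 3.59 in D16S+ and 2.22 in iPSCs. It also had 0.551 CPM in D6 siNT and 0.857 in D6 siH3.3, and was the only one of the 12 members with a peak in D6 siNT. Klf2, a Krüppel-like factor, had a promoter member 2634 bp upstream of the TSS (chr8:74839936-74840660) with 0.982, 1.99, 1.51 and 1.54 CPM in D6T-, D12S+, D16S+ and iPSCs, and none in D9T-. At both genes the later levels were above that of D6T-.

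Dppa3 (Stella), a maternal and germline factor, had a promoter member (chr6:122574442-122574963) with 0.841, 1.08, 0.897 and 1.43 CPM, and 1.06 CPM in D9T-. This is the region whose window held 2 octamers. Etv5, an Ets factor, had 3 members. At its promoter (chr16:22402645-22403157) CPM was 1.31 in D6T-, 0.833 in D9T-, 1.02 in D12S+, 0.897 in D16S+ and 0.828 in iPSCs, so D6T- was highest on the scale of library tags but lowest of the required libraries when scaled to common regions. In an intron (chr16:22411579-22412464), where the octamer shown above lies, it was 0.467, 1.70, 1.13 and 0.790 CPM in the 4 required libraries, and D12S+ was highest. The remaining pluripotency genes on the list had these D6T- values: Sall4, a zinc-finger factor, 0.514 and 0.748 CPM at 2 promoter members, Nr5a2, a nuclear receptor, 0.654, Manba, the lysosomal beta-mannosidase, 0.608, and Tdh, threonine dehydrogenase, 0.748. Against the members' D6T- median of 0.701 CPM, some of them were above and some below. Zscan10, a zinc-finger factor, stood at 1.03 CPM in D6T- and at 0.715 in iPSCs. Scaled to common regions, iPSCs was highest and D6T- lowest of the required libraries at Zscan10.

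Members at genes of the other lists were few. Esrp1, an epithelial splicing regulator, had a promoter member (chr4:11313556-11315745) with 0.841 CPM in D6T-, 0.530 in D9T-, 3.12 in D12S+, 2.79 in D16S+ and 0.941 in iPSCs, and 0.643 CPM in both siRNA libraries. Its level was highest in the SSEA-1+ libraries. Chd1, a chromatin remodeller, had an intronic member with 1.12, 0.852, 1.18 and 0.527 CPM in the required libraries. Scaled to common regions, D6T- was the lowest of them at this member. Kdm4c, an H3K9 demethylase, had one with 0.608, 0.965, 1.23 and 0.903 CPM, and the Polycomb gene Cbx7 had one at its promoter with 0.374, 0.795, 0.992 and 0.527 CPM. Ctbp2, a corepressor gene that is on none of the lists and lies in the annotated span of Fgfr2, had one at its promoter with 0.561, 2.44, 3.64 and 1.81 CPM. At the last 3 genes D6T- was the lowest required library under both scalings, and D16S+ the highest by tags, but at Kdm4c iPSCs was highest when scaled to common regions. None of the members lay within 3 kb of the 4 genes delivered by retrovirus.

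The windows with most members are given as a description, as no background density is given here. The densest 100 kb window held 5 members, on chr14:106250604-106320544 around Spry2, an antagonist of receptor tyrosine kinase signalling. Of these, 3 lay from 34466 to 37473 bp downstream of the Spry2 start, 1 lay 23961 bp upstream of it, and 1 was nearest to AC140340.1. Spry2 was also among the genes with an early-staying region. D6T- CPM at the 5 was 0.421, 0.982, 1.08, 0.467 and 0.561, and D16S+ CPM was 0.945, 3.07, 2.50, 1.23 and 3.21, so each was higher in D16S+. Windows with 4 members were found on chr8:28270443-28364551, upstream of the translation repressor gene Eif4ebp1 and in Rab11fip1, and on chr13:114359556-114396717, in and downstream of Snx18, a sorting nexin gene. At Snx18 the strongest member had 1.40 CPM in D6T-, 0.852 in D12S+, 0.992 in D16S+ and 0.677 in iPSCs, while the other 3 were between 0.374 and 0.514 CPM in D6T-. Scaled to common regions, iPSCs was the highest required library at that strongest member.

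The edges of the rule were close to many regions. Just inside were an intronic member of C1qtnf3 and one of Ryr2, each with 0.374 CPM (8 tags) in D6T-, the fewest that gave a peak there, and with 0.640 and 1.05 CPM in iPSCs. Just outside were a region nearest to Zfp804a (chr2:81688835-81689528) and the promoter of Hook1 (chr4:95633475-95634413). They had 3.13 and 4.16 CPM in D6T- and 3.16 and 3.05 CPM in iPSCs, and missed the rule by D3 peaks of 0.893 and 1.26 CPM. In all, 238 regions missed the rule only by a peak at D0, 4676 only by a peak at D3 (the early-staying regions), 3442 only by none in D6T- (the late-staying regions), 568 only by none in D12S+, 597 only by none in D16S+ and 718 only by none in iPSCs.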

How the data were processed

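ATAC-Seq was done on 9 libraries, 1 per condition: 7 of the time course and 2 of siRNA-treated cells at day 6. Per the study's methods, the authors mapped reads to mm9 with STAR, removed multi-mapped, duplicate (Picard) and mitochondrial reads, and ran MACS2 for peaks with no control library. Per the file headers, its version was 2.1.0.20151222 and the q cutoff 0.05. The deposited peak tables hold, per summit, the pileup signal of tags extended to 200 bp, the fold enrichment (a ratio), and the −log10 p-value and −log10 q-value.

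Pileup at the highest summit of a region was scaled to 1000000 tags of the library, as counted in the file header (CPM). Peaks of the time-course libraries were merged where they overlapped by 1 bp. Genes were those of gencode vM1 on mm9 (37310 genes), promoters reached 3 kb upstream of a TSS, and a region was placed by its midpoint. Motifs (16, both strands) were searched in the 200 bp around the summit of D6T-, or for regions without a D6T- peak around the highest summit of any time-course library, and RefSeq synonyms gave older names for 4 listed genes (Plet1, Tfap2a, Tfap2c and Tfcp2l1). For 7 pairs of a member and an siRNA library the overlapping peak had its summit outside the member, and no level was taken. Repeat content was not computed. Python 3.11.15, numpy 2.4.6, pandas 2.3.3, scipy 1.17.1 and matplotlib 3.10.9 were used, and the region and interval code was tested on simulated data.

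With 1 library per condition no test was made, and shares carry 95% Wilson intervals for counting error only. Regions were named by a fixed rule: the 10 members with the highest lowest CPM over the 4 required libraries, up to 4 per gene list, the 3 highest and the 3 lowest for each ratio, the 3 densest loci of 100 kb, and 2 regions on each side of the rule. The remaining pluripotency members, and those whose sequence is printed, were added after their values were seen. Members, gene lists and motifs were chosen with earlier results of these data known. Alternatives changed the peak cutoff, the overlap, the distance to early peaks, the promoter, the scaling and the motif window.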

Additional observations from a re-analysis of the deposited data

Results flagged for a closer look

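Chromosome X was outside the rule, and 48 of its 4312 regions had the same pattern of peaks as the members, absent from D0 and D3 and present in D6T-, D12S+, D16S+ and iPSCs. They stood out only because they are a signal in data that the comparisons did not use. Per 1000 regions this was 11.1, against 8.83 on chromosomes 1 to 19, where single chromosomes ran from 5.61 to 11.5. Of the 48, 19 had a D9T- peak, 12 a D6 siNT peak and 13 a D6 siH3.3 peak. Their median CPM was 0.771 in D6T-, 0.908 in D12S+, 0.992 in D16S+ and 0.658 in iPSCs.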

How the results depend on the processing

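No paired analysis was possible because each condition was 1 library. The number of regions that passed the rule was 1808 with all peaks, 610 with the stronger 50% of each library's peaks, 691 with the 36708 strongest of each, and 594 with a D9T- peak required. The smaller sets are mostly other regions: 33.4% of the 610 and 8.83% of the 691 overlapped a member, and 66.6% and 91.2% overlapped a deposited D0 or D3 peak that the stricter cutoff had dropped. With equal peak numbers, the share with a D9T- peak was 77.9%, with a D6 siNT peak 67.6% and with a D6 siH3.3 peak 63.1%. With D9T- required, the siRNA shares were 49.0% and 54.9%, and with no early peak within 1 kb the D9T- share was 35.1%. The promoter share was 21.0% (stronger 50%), 22.0% (equal numbers), 17.0% (overlap of the D6T- peak by 50%), 12.1% (no early peak within 1 kb), 10.9% (D9T- required), 8.90% (1 kb upstream to 100 bp downstream) and 11.0% (protein-coding genes). The median log2 ratio of iPSCs over D6T- changed sign to 1.63 with scaling by common regions and to 0.06 with fold enrichment, and was -0.41 with the stronger 50% and -1.02 with equal numbers. The Sox-Oct share was 1.94% in 100 bp, 5.25% in 400 bp and 2.60% with equal peak numbers. That of AP-1 was 6.08%, 15.9% and 15.5% in these settings and 8.35% around the iPSC summit. In 400 bp the median GC content was 48.8% and 3.71% of windows had no CpG. By nearest TSS within 50 kb, 9 signalling, 2 germline and 0 extraembryonic, endoderm and mesoderm genes had a member. The pluripotency count stayed at 9, but with Lefty2, Mycn and Prdm14 in place of Dppa3, Manba and Tcfcp2l1. Apart from the window size, which sets how much sequence is searched, and the sets of regions given above, the cause of these shifts was not tested. Motif shares under the stricter peak cutoffs, and the order of libraries and 2-fold counts with common-region scaling, were chosen after seeing the data. The median log2 ratio of D6 siH3.3 over D6 siNT kept its direction in all 4 alternatives, at 0.04 or 0.05 against 0.10. Over all 32194 regions with a summit in both libraries it was 0.08, so this direction was not particular to the members. Weak peaks limit the results: a member could pass with 8 tags in D6T-, and accessibility under the lowest value called at D0 or D3 was not seen.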
